A study of Mus musculus with 4 samples.

Results

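Genes of DNA replication and of mitosis were followed through the immune cells of a mouse mammary tumour treated with a taxane, an IRE1 inhibitor, or both. The set held 42 genes chosen by name for their place in the cell cycle, and all 42 were found by symbol among the 32285 features of the count matrices. Of these, 11 act in replication (Mcm2 to Mcm7, Pcna, Pclaf, Rrm1, Rrm2 and Tyms) and 31 act in mitosis, from entry to cytokinesis. The tumour was 2153L, which comes from a genetically engineered mouse model and was grown by transplant in female Balb/c mice, in the mammary fat pad. Mice received vehicle, 20 mg/kg of docetaxel, 150 mg/kg of ORIN1001, or both drugs at those doses (the combination), and tumours were taken after 8 days. Cells sorted as CD45+, the surface marker of leukocytes, were profiled with 10x droplet 3' sequencing as 1 library per group. No group had a replicate and the number and age of the mice were not given in the sources used here, so every difference below is between single libraries and no gene is called changed.

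Cells that divide copy their genome in S phase and separate the copies in mitosis, and the genes for these steps are switched on in that order. E2F factors drive the replication genes before S phase, and the MuvB complex with B-MYB and FOXM1 drives the mitotic genes in G2. In resting cells and in G1 the DREAM complex represses both groups, and CHR and CCAAT elements are known elements of mitotic promoters. Docetaxel binds and stabilises microtubules and holds dividing cells at the spindle checkpoint, and ORIN1001 inhibits the RNase of IRE1α, the stress sensor of the endoplasmic reticulum. In a tumour, the CD45+ cells known to divide in place include macrophages and activated T cells, while neutrophils are mature cells that have left the cycle.

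The libraries held 8464 to 10362 barcodes and 64257802 to 86383509 unique molecular identifiers (UMIs, the counted transcripts). Cells were placed in classes by marker genes that are not members of the set, and the classes below are named by those gates. Macrophages numbered 2348 in vehicle, 1642 in docetaxel, 982 in ORIN1001 and 1534 in the combination. CD8 T cells numbered 394 in vehicle, 548 in docetaxel, 448 in ORIN1001 and 1347 in the combination, and regulatory T cells 82 in vehicle, 210 in docetaxel, 143 in ORIN1001 and 275 in the combination. The NK, conventional dendritic cell (DC), monocyte and epithelial gates each held 317 cells or fewer in any library, and only 15 and 21 epithelial cells were gated in the ORIN1001 and docetaxel libraries. Epithelial cells carry no CD45, the marker of the sort. Any 2 libraries shared between 96 and 134 barcodes, and doublet removal took 7.01% of cells from ORIN1001 against 1.27% to 2.002% of the others. Levels are given in CPM, the UMIs of a gene or list per 1000000 UMIs of the class in that library. Brackets give 95% intervals that cover counting error alone, not the spread between cells or mice, and ratios are on the log2 scale.

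By summed level, member transcripts were most abundant in epithelial cells, CD8 T cells, regulatory T cells and NK cells of the vehicle library. Macrophages and conventional DCs followed, and monocytes and neutrophils held few of them. In the vehicle library the summed mitotic level was 2254 CPM in epithelial cells, 2134 in CD8 T cells, 2068 in regulatory T cells, 1809 in NK cells, 1087 in macrophages and 983 in conventional DCs. It was 83.8 CPM in monocytes and 121 in neutrophils. A single cell held 54.1% of the vehicle mitotic UMIs in regulatory T cells and 25.2% in NK cells, so these sums rest on few cells. The summed level counts fewer dividing cells and less RNA per dividing cell in the same way, so cells were also scored one by one after each was thinned to 2000 UMIs. In macrophages, the share of cells with UMIs of at least 2 mitotic members was 21.5% (19.8 to 23.2) in vehicle, 26.1% (24.0 to 28.4) in docetaxel, 23.2% (20.6 to 26.1) in ORIN1001 and 22.9% (20.8 to 25.1) in the combination. In CD8 T cells it was 16.5% (12.97 to 20.6) in vehicle, 17.3% (14.2 to 20.8) in docetaxel, 17.8% (14.3 to 21.7) in ORIN1001 and 18.7% (16.6 to 20.9) in the combination. In vehicle the shares of CD8 T cells, regulatory T cells and NK cells lay below that of macrophages, unlike their summed levels. Neutrophils, the class taken as background, gave 2.10% in vehicle, 2.13% in docetaxel, 1.21% in ORIN1001 and 2.40% in the combination, and monocytes gave 1.92% in vehicle, 2.65% in docetaxel, 1.45% in ORIN1001 and 3.17% in the combination, so a share in monocytes could not be told from background. Cells under 2000 UMIs were left out, which removed 7 to 37 CD8 T cells, 31 to 55 macrophages and 687 to 1302 neutrophils per library. Before thinning the macrophage shares were 52.8% in vehicle, 64.1% in docetaxel, 61.4% in ORIN1001 and 59.6% in the combination, the CD8 T cell shares 36.5% in vehicle, 43.4% in docetaxel, 40.6% in ORIN1001 and 47.9% in the combination and the neutrophil shares 5.23% in vehicle, 4.32% in docetaxel, 3.50% in ORIN1001 and 4.28% in the combination, at median depths of 17581 to 24499.5, 5012.5 to 6148 and 2218 to 3484 UMIs.

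**Figure D1:**
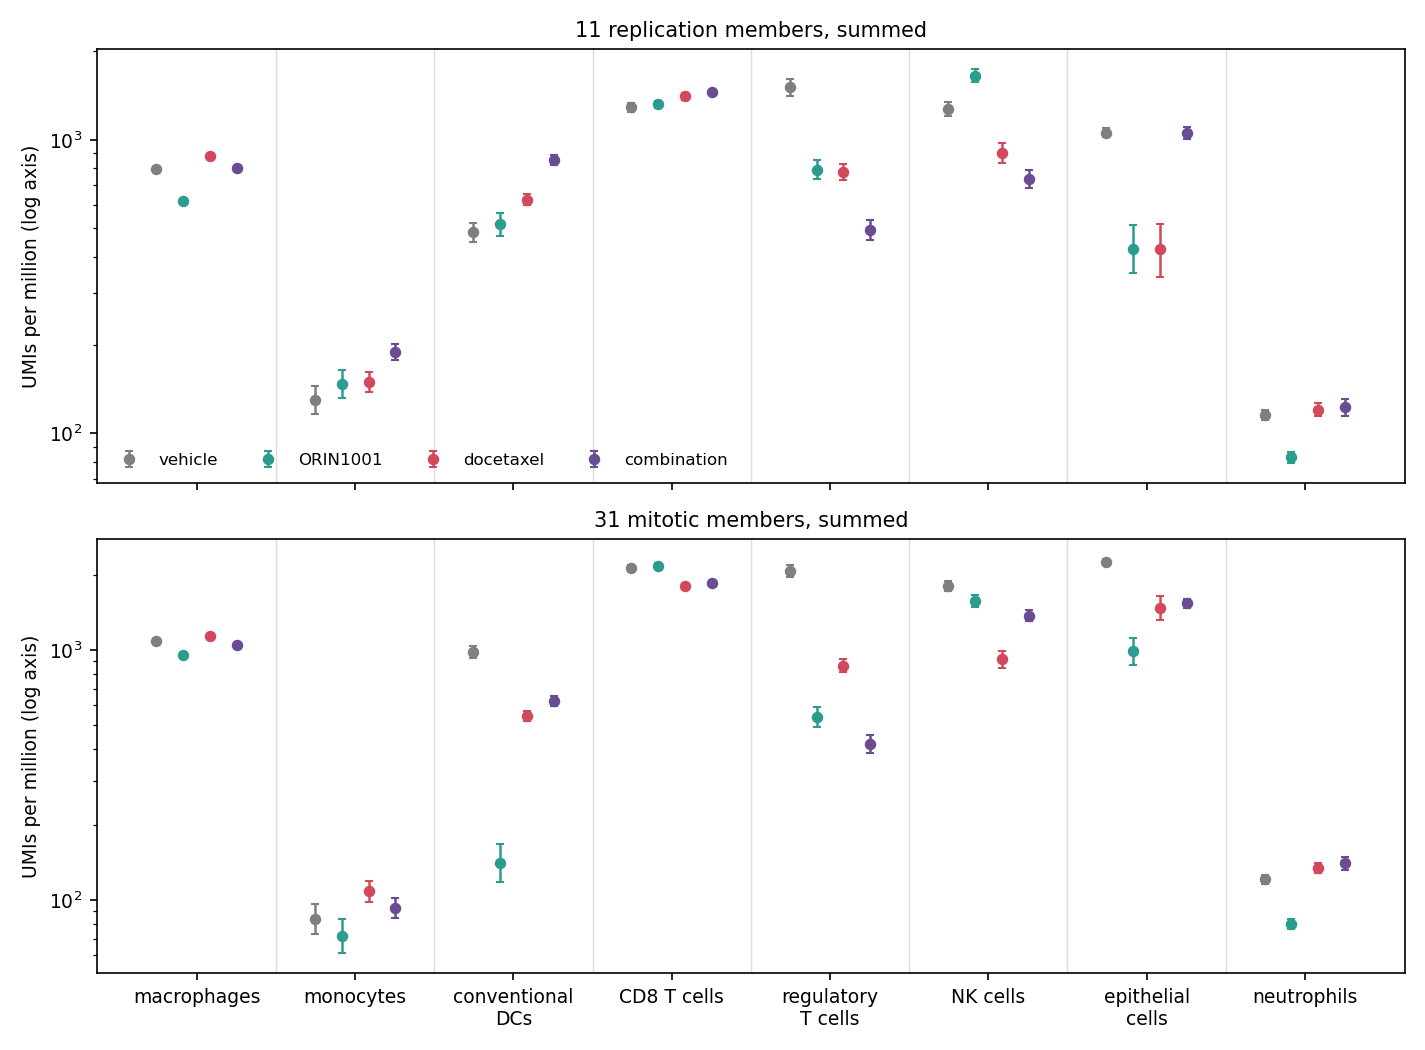
Summed level of the 11 replication members (top) and the 31 mitotic members (bottom) in CPM on a log axis, by gated class, with 1 point per library and 95% Poisson intervals. Monocytes and neutrophils have the lowest sums in vehicle, and docetaxel and the combination lie below vehicle and ORIN1001 for the mitotic members of CD8 T cells while lying above them for the replication members.

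**Figure D2:**
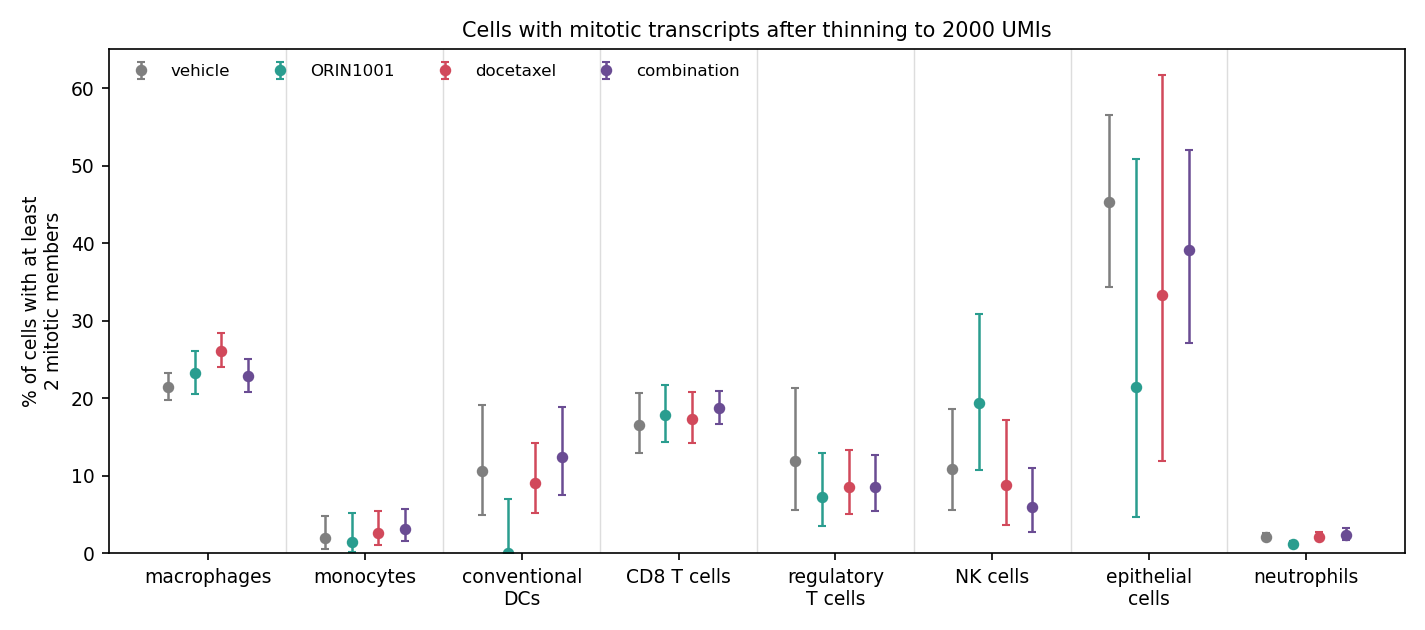
Percent of cells with UMIs of at least 2 mitotic members after thinning each cell to 2000 UMIs, by class and library, with exact binomial 95% intervals. In CD8 T cells the 4 libraries lie between 16.5% and 18.7% with overlapping intervals, and in NK cells, regulatory T cells, epithelial cells and monocytes the intervals of all libraries overlap, while in conventional DCs that of ORIN1001 lies below that of the combination.

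CD8 T cells, the cytotoxic T cells of the tumour, had fewer mitotic transcripts in the 2 libraries with docetaxel than in the 2 without. They had slightly more replication transcripts in those libraries, which in sums of thinned cells held against vehicle but hardly against ORIN1001. The mitotic members summed to 2134 CPM in vehicle, 1794 in docetaxel, 2175 in ORIN1001 and 1858 in the combination, and the replication members to 1290.1 CPM in vehicle, 1407 in docetaxel, 1319 in ORIN1001 and 1457 in the combination. The docetaxel and combination libraries were lowest for the first list and highest for the second. The log2 number of mitotic UMIs per replication UMI was 0.73 in vehicle, 0.35 in docetaxel, 0.72 in ORIN1001 and 0.35 in the combination, a difference of -0.38 (-0.46 to -0.30) between docetaxel and vehicle and of -0.37 (-0.43 to -0.31) between the combination and ORIN1001. The mitotic sums had ratios of -0.25 (-0.30 to -0.20) and -0.23 (-0.26 to -0.19) in those comparisons and the replication sums 0.13 (0.063 to 0.19) and 0.14 (0.098 to 0.19). The comparisons share no library. ORIN1001 differed from vehicle by -0.0045 (-0.085 to 0.076) and the combination from docetaxel by -0.00025 (-0.058 to 0.058). These values near 0 did not hold in sums of thinned cells. There the number of mitotic UMIs per replication UMI was lower in ORIN1001 than in vehicle and higher in the combination than in docetaxel.

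**Figure D3:**
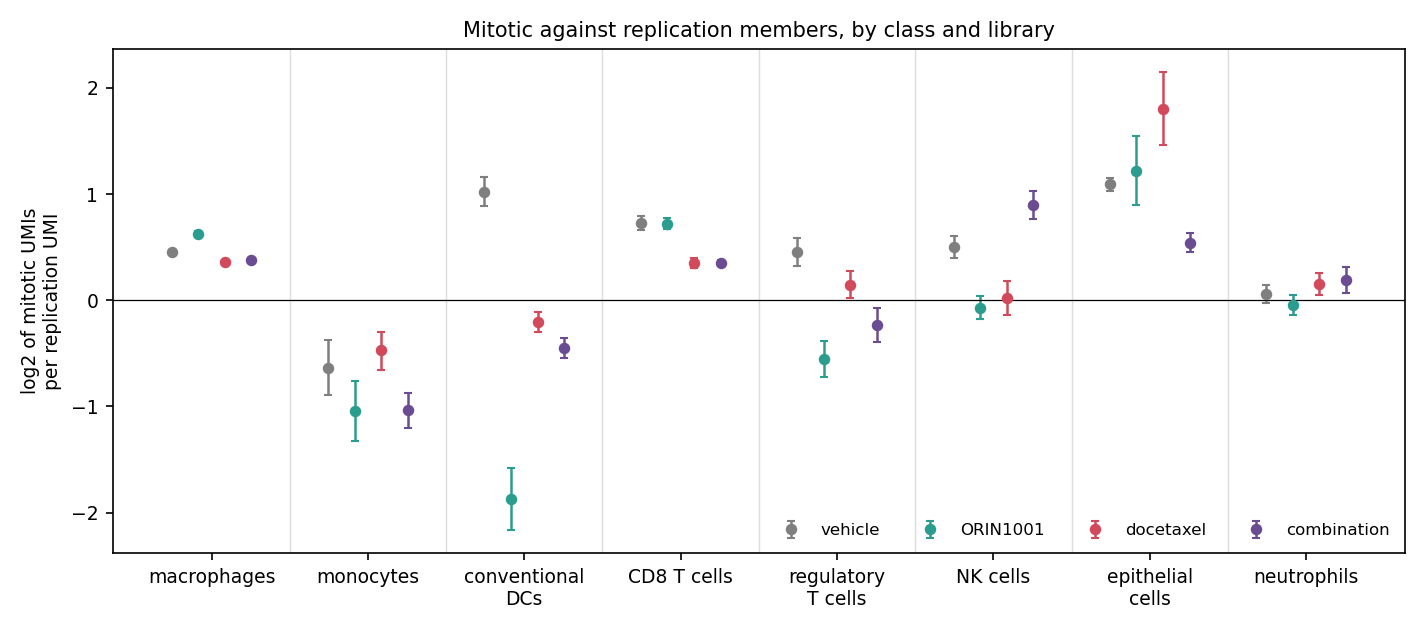
Log2 of mitotic UMIs per replication UMI in each class and library, with 95% intervals for counting error. In CD8 T cells vehicle and ORIN1001 lie at 0.73 and 0.72 and docetaxel and the combination both at 0.35, while in conventional DCs, NK cells, regulatory T cells and epithelial cells the 2 docetaxel comparisons run in opposite directions.

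The direction of the 2 docetaxel differences was kept under all 10 alternatives, but their size was not. For docetaxel against vehicle the difference ran from -0.26 with each cell weighted the same to -0.47 with gates read from thinned cells. For the combination against ORIN1001 it was -0.13 with each cell weighted the same, -0.15 with gates on thinned cells, -0.15 in sums of thinned cells and -0.20 without the deepest 5% of cells. In sums of thinned cells the replication level of ORIN1001 lay close to that of docetaxel, and vehicle alone stood lower. Mcm5 had 54.3 CPM in vehicle, 72.4 in docetaxel, 82.0 in ORIN1001 and 79.8 in the combination there. Tyms had 29.7 CPM in vehicle, 57.3 in docetaxel, 45.6 in ORIN1001 and 47.3 in the combination. The transcripts came from few cells: the number of cells that together held 50% of the mitotic UMIs was 13 in vehicle, 15 in docetaxel, 11 in ORIN1001 and 40 in the combination. Among thinned cells with UMIs of at least 2 members of either list, the share with at least 2 mitotic members was 56.1% (46.5 to 65.4) in vehicle, 49.5% (42.1 to 56.9) in docetaxel, 53.8% (45.3 to 62.1) in ORIN1001 and 51.1% (46.6 to 55.7) in the combination, so no difference in that share was detectable with these numbers of cells. Thinned cells with at least 2 replication members made up 22.2% (18.2 to 26.7) in vehicle, 27.8% (24.1 to 31.8) in docetaxel, 25.5% (21.5 to 29.9) in ORIN1001 and 28.9% (26.5 to 31.5) in the combination.

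Of the 42 members, all reached 30 UMIs in docetaxel and vehicle together, and 7 lay at least 0.5 lower in docetaxel, against 5.66% of the 9459 genes with 30 UMIs. None lay at least 0.5 higher, against 8.59% of those genes. All 7 were mitotic. At any size, 27 of 31 mitotic members were lower, with a median of -0.23, and 9 of 11 replication members were higher, with a median of 0.13. Of all genes 47.0% were lower and 53.0% higher, with a median of 0.019. For the combination against ORIN1001, 3 of the 42 members lay at least 0.5 lower and none higher, against 7.01% and 6.6% of 10499 genes. The count of lower members is close to the share over all genes. There 28 of 31 mitotic members were lower (median -0.20) and 9 of 11 replication members higher (median 0.11), against 49.2% of all genes lower and 50.8% higher, with a median of 0.006. The 3 were Ube2c, Cenpe and Cenpf.

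**Figure D4:**
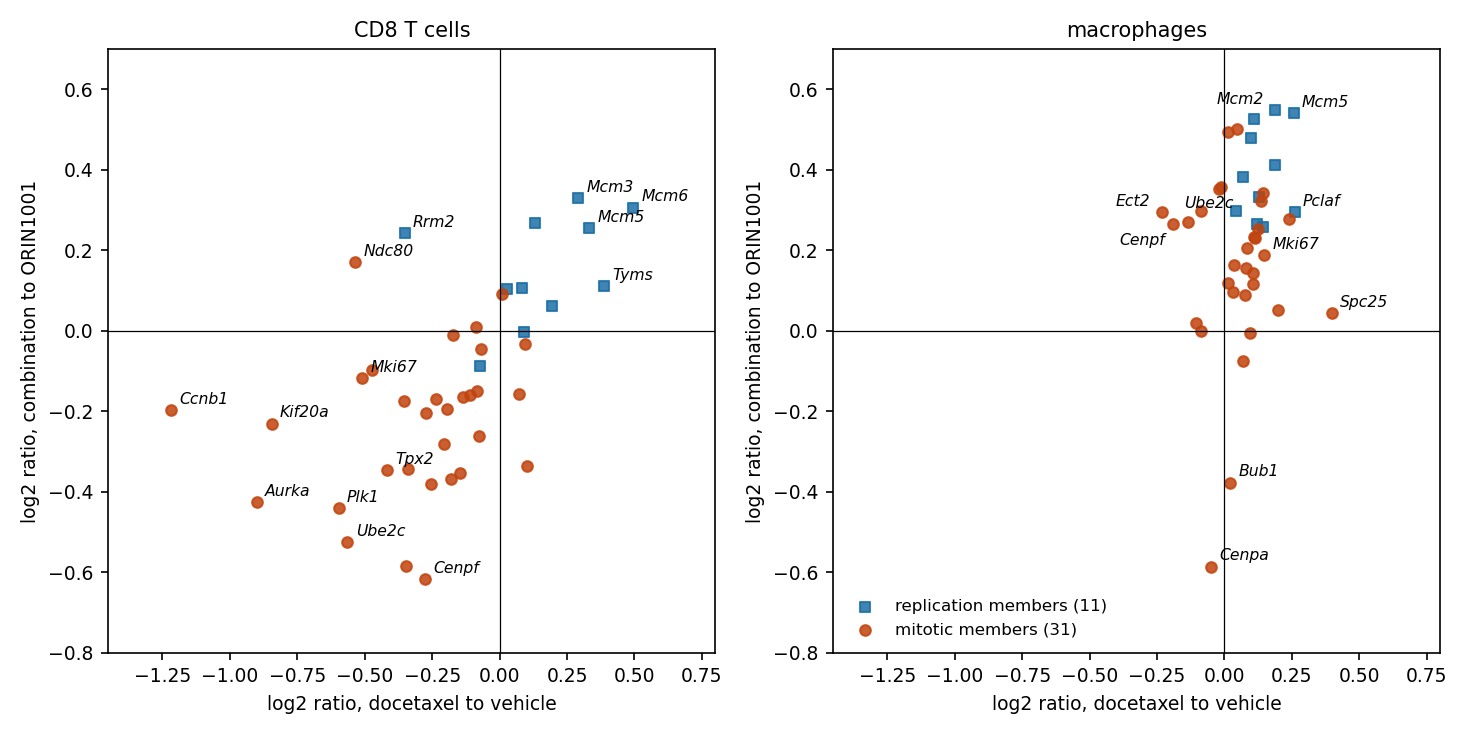
Log2 ratio of each of the 42 members in docetaxel against vehicle (x axis) and in the combination against ORIN1001 (y axis), in CD8 T cells (left) and macrophages (right); squares are the 11 replication members and circles the 31 mitotic members. In CD8 T cells most circles lie left of and below 0 and most squares right of and above it, while in macrophages all 11 squares lie right of and above 0 and Cenpa and Bub1 lie lowest on the y axis.

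In CD8 T cells the licensing factors Mcm2 to Mcm7, which form the helicase ring loaded onto replication origins, summed to 618 CPM in vehicle, 738 in docetaxel, 667 in ORIN1001 and 788 in the combination. Their ratios were 0.26 (0.17 to 0.35) for docetaxel and 0.24 (0.17 to 0.30) for the combination against ORIN1001. Mcm6 was the member with the highest docetaxel ratio, at 129.8 CPM in vehicle, 183 in docetaxel, 143 in ORIN1001 and 177 in the combination, a ratio of 0.49 (0.31 to 0.69). Mcm5 had 98.8 CPM in vehicle, 124 in docetaxel, 107 in ORIN1001 and 128 in the combination, a ratio of 0.33 (0.11 to 0.55). For both genes the 2 libraries with docetaxel were the 2 highest. The sliding clamp Pcna and its partner Pclaf gave 353 CPM in vehicle, 349 in docetaxel, 356 in ORIN1001 and 343 in the combination together and differed little between libraries. Among the genes of nucleotide supply, Tyms, the thymidylate synthase, had 70.2 CPM in vehicle, 91.8 in docetaxel, 78.3 in ORIN1001 and 84.5 in the combination, a docetaxel ratio of 0.39 (0.13 to 0.65). Rrm2, the small subunit of ribonucleotide reductase, went the other way at -0.35 (-0.54 to -0.16), from 159 CPM in vehicle, 125 in docetaxel, 109.6 in ORIN1001 and 129.8 in the combination, with vehicle the highest library.

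The APC/C partners, which mark mitotic proteins for destruction, stood at -0.49 (-0.64 to -0.34) for docetaxel and -0.49 (-0.60 to -0.38) for the combination against ORIN1001. Ube2c (chr2:164769898-164778822), the ubiquitin-conjugating enzyme of that complex, had 202 CPM in vehicle, 137 in docetaxel, 213 in ORIN1001 and 148 in the combination, ratios of -0.56 (-0.74 to -0.39) and -0.52 (-0.65 to -0.40). The 2 libraries with docetaxel were the lowest and their intervals did not reach the other 2. Ccnb1 (chr13:100778650-100786570) encodes cyclin B1, which with Cdk1 drives entry into mitosis. It had 37.3 CPM in vehicle, 16.0 in docetaxel, 29.8 in ORIN1001 and 25.97 in the combination, the lowest docetaxel ratio of the set at -1.22 (-1.70 to -0.75), but -0.20 (-0.52 to 0.13) against ORIN1001. Its partner Cdk1 stood at 0.070 for docetaxel. Among the kinases, Aurka, which matures the spindle poles, had 18.8 CPM in vehicle, 10.1 in docetaxel, 19.6 in ORIN1001 and 14.6 in the combination, a ratio of -0.90 (-1.54 to -0.27). Plk1, the polo kinase of spindle assembly, had 43.9 CPM in vehicle, 29.0 in docetaxel, 44.5 in ORIN1001 and 32.8 in the combination, ratios of -0.60 (-0.98 to -0.21) and -0.44 (-0.71 to -0.17). Kif20a, a kinesin of the central spindle, had 24.3 CPM in vehicle, 13.5 in docetaxel, 20.1 in ORIN1001 and 17.1 in the combination, a ratio of -0.85 (-1.40 to -0.30). For each of these 3 the docetaxel library was the lowest and the combination the next lowest. Mki67, the coat protein of mitotic chromosomes, stood at -0.51 (-0.66 to -0.35) and -0.12 (-0.23 to -0.0018), while Top2a, the topoisomerase that untangles chromosomes, stood at 0.0073 (-0.16 to 0.17) and 0.091 (-0.031 to 0.21). Cenpf and Cenpe of the outer kinetochore stood at -0.28 and -0.35 for docetaxel and at -0.62 (-0.85 to -0.38) and -0.59 (-0.82 to -0.35) against ORIN1001. Ndc80, of the same structure, stood at -0.53 (-1.06 to -0.0058) and 0.17 (-0.22 to 0.58).

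Intervals lay below 0 in both docetaxel comparisons for 5 members, Aurka, Plk1, Ube2c, Tpx2 and Mki67, against 3.13% of 9435 genes, and above 0 in both for 3, Mcm3, Mcm5 and Mcm6, against 4.12%. Members of the CD8 T cells other than Ccnb1, Aurka, Kif20a, Mcm5, Mcm6 and Tyms were named after their values were seen. Without the deepest 5% of CD8 T cells the ratio to ORIN1001 was 0.0018 for Ube2c, 0.13 for Mki67, -0.071 for Plk1 and -0.055 for Tpx2, so these rested on the deepest cells of the ORIN1001 and combination libraries. Against vehicle the docetaxel ratio of Ube2c was -0.76 without those cells. In sums of thinned cells Aurka turned to 0.54, from 2 UMIs in vehicle and 4 in docetaxel. Mcm3 turned to -0.024 there, and against ORIN1001 Mcm5 turned to -0.040 and Mcm6 to -0.098.

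Cell cycle genes outside the set were counted in the same way in these CD8 T cells, and those named here were chosen after their values were seen. Of 31 other G2/M genes, 7 lay at least 0.5 lower in docetaxel and 6 lower in the combination against ORIN1001, with none at least 0.5 higher in either and medians of -0.22 and -0.15. Nek2, a kinase that splits centrosomes, had 17.3 CPM in vehicle, 9.35 in docetaxel, 20.4 in ORIN1001 and 10.9 in the combination. Of 27 other G1/S genes, 3 and 1 lay at least 0.5 higher and none lower, with medians of 0.12 and 0.067. E2f1, a driver of S phase entry, had 14.1 CPM in vehicle, 27.1 in docetaxel, 22.5 in ORIN1001 and 24.1 in the combination, with vehicle the lowest library. Of 10 genes of cycle arrest and quiescence, 8 could be compared for docetaxel and vehicle, of which 3 were higher and 5 lower, with a median of -0.21. Cdkn1a, the p21 inhibitor that p53 induces, had 25.5 CPM in vehicle, 15.3 in docetaxel, 22.8 in ORIN1001 and 14.2 in the combination, and was the 1 at least 0.5 lower. Cdkn2a was the 1 at least 0.5 higher, with 14.5 CPM in vehicle, 29.5 in docetaxel, 21.2 in ORIN1001 and 25.3 in the combination. Of 6 G1 cyclins and kinases, 3 were higher and 3 lower in docetaxel. Cdk6, a partner of the D cyclins, was the 1 at least 0.5 higher, with 49.4 CPM in vehicle, 82.4 in docetaxel, 80.1 in ORIN1001 and 93.7 in the combination, and Ccnd1, cyclin D1, was the 1 at least 0.5 lower, with 12.5 CPM in vehicle, 6.64 in docetaxel, 4.56 in ORIN1001 and 9.28 in the combination. Of 9 chromatin and tubulin genes linked to proliferation, 7 were lower in docetaxel, none by 0.5. The gated CD8 T cells held the T cell markers at 4467 CPM in vehicle, 5194 in docetaxel, 5144 in ORIN1001 and 5864 in the combination. All 8 neutrophil markers had UMIs there, led by S100a9, and summed to 677 CPM in vehicle, 166 in docetaxel, 465 in ORIN1001 and 108 in the combination, so they were highest in vehicle; their part in the result was not tested.

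The promoters of mitotic and replication members differed in the letters they held. RefSeq promoters on GRCm38.p6, from 250 bases before to 50 after the start site, were matched by symbol for 37 of the 42 members, 3 of which had 2 promoters. They were searched on both strands for the CHR letters TTTGAA and TTTAAA, for CCAAT, and for the E2F letters TTTGGCGC, TTTCCCGC, TTTGCCGC and TTTCGCGC, whose matches may overlap. CHR letters were found in 25 of 27 mitotic promoters and 4 of 10 replication promoters, against 27.6% of all 32851 promoters in the table. CCAAT was found in 24 of 27 and 9 of 10, against 37.4%, and CHR with CCAAT in 23 of 27 and 4 of 10, against 10.7%. E2F letters were found in 1 of 27 mitotic and 5 of 10 replication promoters, against 2.26%. A match is a description of the letters and does not show a bound factor.

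The 150 bases before the start site are shown for Ube2c, Plk1, Ccnb1, Aurka and Mki67, mitotic members lower in docetaxel CD8 T cells, and for Mcm5 and Mcm6, the replication members with intervals above 0 in both comparisons and E2F letters in this stretch. Capitals mark the CHR, CCAAT and E2F matches on either strand, and the sequences run 5′ to 3′ towards the gene.
Ube2c: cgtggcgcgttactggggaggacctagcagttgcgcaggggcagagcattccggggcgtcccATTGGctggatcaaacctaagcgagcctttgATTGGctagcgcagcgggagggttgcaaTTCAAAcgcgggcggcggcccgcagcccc
Plk1: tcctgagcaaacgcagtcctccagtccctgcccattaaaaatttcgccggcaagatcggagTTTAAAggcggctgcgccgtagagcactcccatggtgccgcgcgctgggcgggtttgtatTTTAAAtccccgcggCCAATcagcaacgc
Ccnb1: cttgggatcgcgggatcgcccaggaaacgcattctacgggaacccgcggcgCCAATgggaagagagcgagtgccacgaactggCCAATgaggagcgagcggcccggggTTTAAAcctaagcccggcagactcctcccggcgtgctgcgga
Aurka: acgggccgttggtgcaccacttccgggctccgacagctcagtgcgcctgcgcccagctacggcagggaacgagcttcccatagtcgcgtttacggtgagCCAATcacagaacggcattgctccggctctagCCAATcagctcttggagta
Mki67: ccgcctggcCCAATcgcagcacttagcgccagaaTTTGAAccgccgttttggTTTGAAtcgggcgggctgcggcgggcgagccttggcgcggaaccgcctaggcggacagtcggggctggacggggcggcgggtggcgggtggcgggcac
Mcm5: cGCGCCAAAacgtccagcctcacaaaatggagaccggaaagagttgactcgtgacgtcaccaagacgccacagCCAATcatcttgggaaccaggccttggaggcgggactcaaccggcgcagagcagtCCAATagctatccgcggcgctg
Mcm6: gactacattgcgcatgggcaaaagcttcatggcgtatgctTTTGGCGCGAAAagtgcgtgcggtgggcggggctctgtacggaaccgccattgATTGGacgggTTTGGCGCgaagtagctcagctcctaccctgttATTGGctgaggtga
They lie on GRCm38.p6 at chr2:164769779-164769928 (plus strand), chr7:122159285-122159434 (plus strand), chr13:100786487-100786636 (minus strand), chr2:172370571-172370720 (minus strand), chr7:135716380-135716529 (minus strand), chr8:75109359-75109508 (plus strand) and chr1:128359706-128359855 (minus strand). The start site here is that of RefSeq. By the GENCODE gene coordinates, the ends of the Ube2c and Ccnb1 stretches lie inside the gene. Those ends hold the CHR matches of both and the nearer CCAAT box of Ccnb1. Ube2c and Ccnb1 each carry a pair of CCAAT boxes followed by a CHR match close to the RefSeq start. Plk1 carries CHR matches before its CCAAT box, and Mki67 carries a pair of CHR matches downstream of its CCAAT box. Aurka carries a pair of CCAAT boxes and no CHR match in the stretch shown, and its CHR letters lie after the start site. Mcm5 and Mcm6 carry CCAAT boxes and E2F letters and no CHR match in the stretch shown. Mcm5 has CHR letters farther upstream in the searched window, at base -221 from the start site. Mcm3, also above 0 in both comparisons, has its E2F letters after the start site and is not shown.

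Macrophages, the class with the most thinned cells holding at least 2 mitotic members in each library, had more replication transcripts in docetaxel than in vehicle and in the combination than in ORIN1001. Mitotic transcripts were higher by a smaller margin, which sums of thinned cells did not keep for the combination. The replication members summed to 792 CPM in vehicle, 881 in docetaxel, 618 in ORIN1001 and 804 in the combination, ratios of 0.15 (0.13 to 0.17) for docetaxel and 0.38 (0.35 to 0.41) for the combination against ORIN1001. The mitotic members summed to 1087 CPM in vehicle, 1132 in docetaxel, 952 in ORIN1001 and 1045 in the combination, ratios of 0.059 (0.040 to 0.077) and 0.13 (0.11 to 0.16). Before thinning, ORIN1001 was the lowest library for both lists and docetaxel the highest. The log2 number of mitotic UMIs per replication UMI was 0.46 in vehicle, 0.36 in docetaxel, 0.62 in ORIN1001 and 0.38 in the combination, a difference of -0.095 (-0.12 to -0.067) for docetaxel and of -0.25 (-0.29 to -0.21) for the combination against ORIN1001. The sign was kept under all 10 alternatives, with the first as near 0 as -0.035 in sums of thinned cells and the second as far as -0.54. In sums of thinned cells the mitotic level of the combination lay below that of ORIN1001, which was not the lowest library there. Ube2c had 71.0 CPM in ORIN1001 and 54.9 in the combination in those sums, while Mki67 went the other way with 76.2 and 92.0. The number of macrophages that together held 50% of the mitotic UMIs was 106 in vehicle, 99 in docetaxel, 52 in ORIN1001 and 81 in the combination.

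No macrophage member reached a ratio of 0.5 for docetaxel against vehicle in either direction, where 5.21% of 12675 genes lay at least 0.5 higher and 7.97% at least 0.5 lower. All 11 replication members were higher (median 0.13), as were 22 of 31 mitotic members (median 0.068) and 50.4% of all genes. For the combination against ORIN1001, 4 members lay at least 0.5 higher and 1 lower, against 7.58% and 10.6% of 12120 genes. The 4 were Mcm2, Mcm5, Mcm6 and Aurkb, and the 1 was Cenpa. Intervals lay above 0 in both comparisons for 15 members, 9 of them replication members, against 16.9% of 12075 genes, and below 0 in both for none, against 13.4%. Mcm6 did not keep its docetaxel ratio in sums of thinned cells, at -0.13.

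The ratio of ORIN1001 to vehicle in macrophages was negative for all 11 replication members, with a median of -0.40, and for 26 of 31 mitotic members, with a median of -0.23. Of the 42, 6 lay at least 0.5 lower and none higher, against 6.45% and 6.53% of 12375 genes. The 6 were Mcm2 at -0.63 (-0.76 to -0.50), Mcm6 at -0.56 (-0.66 to -0.47), Rrm2 at -0.62 (-0.76 to -0.48), Tyms at -0.53 (-0.66 to -0.41), Cdk1 at -0.64 (-0.77 to -0.50) and Ect2 at -0.70 (-1.03 to -0.39). The mitotic members did not keep a common direction in sums of thinned cells. Of those with the most UMIs in each role, Ccna2 and Mki67 stayed lower in ORIN1001, at 32.1 and 76.2 CPM against 36.9 and 86.6 in vehicle. Aurkb, Ube2c, Cenpa, Birc5, Tpx2, Racgap1 and Cdca3 were higher there. Ube2c had 71.0 CPM in ORIN1001 against 63.2 in vehicle, and Birc5 67.3 against 63.7. The share of thinned macrophages with at least 2 replication members was 26.8% (25.0 to 28.7) in vehicle, 31.9% (29.6 to 34.2) in docetaxel, 21.7% (19.1 to 24.4) in ORIN1001 and 27.9% (25.6 to 30.3) in the combination, lowest in ORIN1001, whereas the share with mitotic members was 23.2% there against 21.5% in vehicle. This comparison and the one of the combination with ORIN1001 share the ORIN1001 library. The 8 macrophage markers summed to 32026 CPM in vehicle, 31062 in docetaxel, 28232 in ORIN1001 and 29398 in the combination and the 8 neutrophil markers to 799 CPM in vehicle, 289 in docetaxel, 1025 in ORIN1001 and 171 in the combination, highest in ORIN1001; their part in the result was not tested.

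Within the macrophages the member with the most UMIs in each role ran as follows. Mcm3, a subunit of the licensing ring, had 109 CPM in vehicle, 124 in docetaxel, 82.9 in ORIN1001 and 110.5 in the combination. Pcna, the sliding clamp, had 115 CPM in vehicle, 125 in docetaxel, 93.8 in ORIN1001 and 113 in the combination. Rrm1, the large subunit of ribonucleotide reductase, had 61.5 CPM in vehicle, 67.9 in docetaxel, 55.4 in ORIN1001 and 66.3 in the combination. For each of these 3 the docetaxel library was the highest and ORIN1001 the lowest. Ccna2, the cyclin of S phase and G2, had 43.4 CPM in vehicle, 46.9 in docetaxel, 37.1 in ORIN1001 and 43.5 in the combination. Aurkb, the kinase of the chromosomal passenger complex, had 28.0 CPM in vehicle, 28.9 in docetaxel, 20.4 in ORIN1001 and 28.9 in the combination, and Birc5, the survivin subunit of the same complex, had 84.5 CPM in vehicle, 93.4 in docetaxel, 70.9 in ORIN1001 and 89.9 in the combination. ORIN1001 was the lowest library for all 3. Tpx2, which activates Aurka on the spindle, had 41.5 CPM in vehicle, 44.4 in docetaxel, 39.7 in ORIN1001 and 39.6 in the combination, and Racgap1, of the centralspindlin complex that starts cytokinesis, had 34.1 CPM in vehicle, 36.0 in docetaxel, 31.4 in ORIN1001 and 33.4 in the combination. Cdca3, which promotes entry into mitosis, had 34.5 CPM in vehicle, 36.2 in docetaxel, 31.6 in ORIN1001 and 29.97 in the combination. In these 3 the libraries lay close together. Mki67 had 117 CPM in vehicle, 129.8 in docetaxel, 98.9 in ORIN1001 and 113 in the combination, highest in docetaxel and lowest in ORIN1001. Ube2c, the conjugating enzyme of the APC/C, had 78.8 CPM in vehicle, 71.8 in docetaxel, 58.5 in ORIN1001 and 70.6 in the combination. Its docetaxel ratio was -0.13 (-0.21 to -0.063) and moved to 0.10 in sums of thinned cells, where its ratio to ORIN1001 also turned, from 0.27 to -0.37. Cenpa, the histone H3 variant that marks centromeres, ran the other way. It had 84.4 CPM in vehicle, 81.5 in docetaxel, 104 in ORIN1001 and 69.1 in the combination, so ORIN1001 was its highest library, with a ratio of 0.30 (0.22 to 0.38) to vehicle and -0.59 (-0.67 to -0.50) between the combination and ORIN1001. Bub1, a kinase of the spindle checkpoint, was chosen after its values were seen as next lowest between the combination and ORIN1001, at -0.38 (-0.59 to -0.17), with 15.4 CPM in vehicle, 15.6 in docetaxel, 16.6 in ORIN1001 and 12.8 in the combination. In CD8 T cells ORIN1001 was also the highest library for Cenpa, at 132 CPM in vehicle, 142 in docetaxel, 172 in ORIN1001 and 136 in the combination.

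At the ends of the macrophage ratios for docetaxel against vehicle, Spc25, of the Ndc80 complex of the kinetochore, was highest at 0.40 (0.23 to 0.57), with 11.9 CPM in vehicle, 15.7 in docetaxel, 13.6 in ORIN1001 and 14.0 in the combination. Pclaf, the partner of Pcna, followed at 0.26 (0.20 to 0.32), with 86.3 CPM in vehicle, 103 in docetaxel, 84.7 in ORIN1001 and 104 in the combination. Mcm5 stood at 0.26 (0.18 to 0.33), with 68.0 CPM in vehicle, 81.2 in docetaxel, 51.7 in ORIN1001 and 75.2 in the combination. Ect2, the exchange factor that activates RhoA for cytokinesis, was lowest at -0.23 (-0.46 to -0.0095), with 8.66 CPM in vehicle, 7.37 in docetaxel, 5.32 in ORIN1001 and 6.53 in the combination. Cenpf stood at -0.19 (-0.32 to -0.063), with 25.7 CPM in vehicle, 22.5 in docetaxel, 20.3 in ORIN1001 and 24.4 in the combination, and moved to 0.20 in sums of thinned cells. Of the 27 other G1/S genes, 18 were higher in docetaxel, none by 0.5, and 26 were higher in the combination than in ORIN1001, 6 by at least 0.5. Of the 31 other G2/M genes, none lay 0.5 away in either comparison, with medians of 0.031 and 0.13. Of the 10 arrest and quiescence genes, 9 were lower in docetaxel, 2 by at least 0.5, and the 1 higher was Ccng1, cyclin G1, at 53.3 CPM in vehicle, 69.0 in docetaxel, 68.7 in ORIN1001 and 78.6 in the combination. The genes named from these lists in macrophages were also chosen after their values were seen. Btg2, an antiproliferative gene of the early response, had 536 CPM in vehicle, 347 in docetaxel, 298 in ORIN1001 and 291 in the combination, with vehicle the highest library. Of the 6 G1 cyclins and kinases, 4 were higher in docetaxel, none by 0.5, and 5 in the combination against ORIN1001, 1 by at least 0.5. That 1 was Ccnd3, cyclin D3, at 42.3 CPM in vehicle, 57.5 in docetaxel, 33.6 in ORIN1001 and 63.4 in the combination, and Cdk6 was lower in both comparisons, at 49.4 CPM in vehicle, 42.4 in docetaxel, 39.2 in ORIN1001 and 33.1 in the combination. Of the 9 chromatin and tubulin genes, 7 and 9 were higher in the 2 comparisons, and Tuba1b, an alpha tubulin, had 1019 CPM in vehicle, 1277 in docetaxel, 834 in ORIN1001 and 1244 in the combination.

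Regulatory T cells, the Foxp3 lineage that restrains other T cells, had lower sums in every drug library than in vehicle. The mitotic members summed to 2068 CPM in vehicle, 864 in docetaxel, 539 in ORIN1001 and 421 in the combination and the replication members to 1509.7 CPM in vehicle, 779 in docetaxel, 792 in ORIN1001 and 493 in the combination. In docetaxel 31 of the 33 members with 30 UMIs lay at least 0.5 lower and none higher, against 11.3% and 13.2% of 7130 genes. A single vehicle cell of 52636 UMIs held, in a class with a median of 5421.5, 54.1% of the vehicle mitotic UMIs, and whether it was a doublet was not tested further than by the caller. Without the leading cell of each library the count was 20, with the number compared not given, and the summed mitotic ratio -0.65 in place of -1.26 (-1.38 to -1.14). With the leading cells kept, the share of thinned cells with at least 2 mitotic members was 11.8% (5.56 to 21.3) in vehicle, 8.50% (5.03 to 13.3) in docetaxel, 7.25% (3.53 to 12.9) in ORIN1001 and 8.56% (5.44 to 12.7) in the combination. Those intervals overlap. Plk1 had 54.2 CPM in vehicle, 7.16 in docetaxel, 0 in ORIN1001 and 4.96 in the combination, from 31, 9, 0 and 7 UMIs. Kif11, the kinesin that separates the spindle poles, had 40.2 CPM in vehicle, 9.55 in docetaxel, 4.60 in ORIN1001 and 5.67 in the combination, and Ccnb1 had 35.0 CPM in vehicle, 8.76 in docetaxel, 5.74 in ORIN1001 and 4.25 in the combination. At the other end, Cenpa had 122 CPM in vehicle, 104 in docetaxel, 90.8 in ORIN1001 and 83.6 in the combination, and a docetaxel ratio of -0.23 (-0.66 to 0.21). Tyms had 73.5 CPM in vehicle, 53.3 in docetaxel, 39.1 in ORIN1001 and 22.0 in the combination, and Pcna 128 CPM in vehicle, 77.2 in docetaxel, 86.2 in ORIN1001 and 63.1 in the combination. Vehicle was the highest library for all 6.

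**Figure D5:**
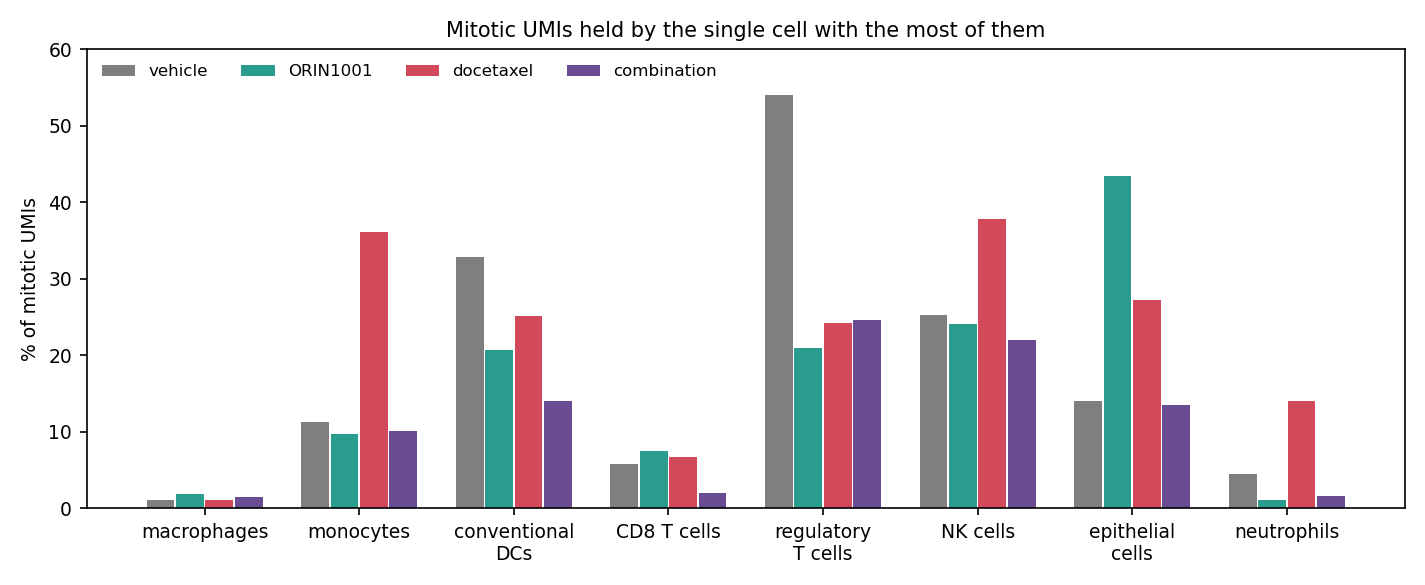
Percent of a class's mitotic UMIs that lay in its single leading cell, as bars from 0, by class and library. In macrophages it was below 2% in each library and in CD8 T cells at most 7.504%, while in vehicle regulatory T cells 1 cell held 54.1% and in ORIN1001 epithelial cells 1 cell held 43.4%.

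NK cells had lower mitotic sums in docetaxel than in vehicle, at 1809 CPM in vehicle, 916 in docetaxel, 1575 in ORIN1001 and 1371 in the combination, with replication sums of 1276 CPM in vehicle, 901 in docetaxel, 1653 in ORIN1001 and 735 in the combination. In docetaxel 28 of 36 members lay at least 0.5 lower and none higher, against 10.4% and 12.2% of 6644 genes. The count was 4 with the gate lead raised and 7 without the deepest 5% of cells. For those counts the number compared and the share over all genes are not given, so they cannot be set against 28 of 36. The raised lead of 0.2 left out 59 of 104 NK cells in vehicle and 37 of 80 in docetaxel. For the combination against ORIN1001, 18 of 38 lay at least 0.5 lower and 1, Ube2c, higher, against 8.89% and 13.9% of 6932 genes. The mitotic to replication difference was -0.48 (-0.67 to -0.29) for docetaxel and 0.97 (0.80 to 1.14) for the combination against ORIN1001, opposite in sign. The leading cell held between 22.0% and 37.8% of the mitotic UMIs of a library. Cdk1, the kinase partner of the B cyclins, had 70.3 CPM in vehicle, 18.9 in docetaxel, 57.0 in ORIN1001 and 38.3 in the combination, and Mki67 272 CPM in vehicle, 75.6 in docetaxel, 227 in ORIN1001 and 165 in the combination. Nusap1, which bundles spindle microtubules, had 55.3 CPM in vehicle, 20.3 in docetaxel, 42.7 in ORIN1001 and 42.2 in the combination. In these 3 docetaxel was lowest. Mcm6 had 159 CPM in vehicle, 167 in docetaxel, 221 in ORIN1001 and 119 in the combination, Mcm7 75.9 CPM in vehicle, 62.5 in docetaxel, 123 in ORIN1001 and 38.3 in the combination and Tpx2 48.7 CPM in vehicle, 39.2 in docetaxel, 61.7 in ORIN1001 and 36.3 in the combination, with ORIN1001 the highest. The share of thinned NK cells with at least 2 mitotic members was 10.9% (5.56 to 18.7) in vehicle, 8.75% (3.59 to 17.2) in docetaxel, 19.4% (10.8 to 30.9) in ORIN1001 and 5.96% (2.76 to 11.01) in the combination.

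Conventional DCs, which present antigen to T cells, had more replication and fewer mitotic transcripts in docetaxel than in vehicle. The mitotic members summed to 983 CPM in vehicle, 543 in docetaxel, 141 in ORIN1001 and 626 in the combination and the replication members to 484 CPM in vehicle, 626 in docetaxel, 515 in ORIN1001 and 855 in the combination. Of 36 members compared, 5 lay at least 0.5 higher, all replication members, and 19 lower, all mitotic, against 12.4% and 9.57% of 8739 genes. The combination against ORIN1001 ran the other way for the mitotic members, all 19 of those compared being at least 0.5 higher, as were 5 of 11 replication members, against 14.8% of 8262 genes. The mitotic count was largely set by the minimum of 30 UMIs and is no support for a difference. Members with few UMIs in ORIN1001 could reach that minimum only through a high combination. Ccna2 had 4 UMIs in ORIN1001 and 81 in the combination, Ube2c 7 and 98, and Cenpe 0 and 32. ORIN1001 was the lowest library for the mitotic sum. Between 2 and 5 cells held 50% of the mitotic UMIs of a library, and without the deepest 5% of cells the summed mitotic ratio for docetaxel turned from -0.86 (-0.96 to -0.75) to 0.23. Cenpf had 36.0 CPM in vehicle, 9.21 in docetaxel, 0 in ORIN1001 and 9.93 in the combination, Ccnb1 28.8 CPM in vehicle, 7.63 in docetaxel, 0 in ORIN1001 and 3.68 in the combination and Ube2c 107 CPM in vehicle, 31.5 in docetaxel, 7.82 in ORIN1001 and 36.0 in the combination. Of these, Cenpf and Ccnb1 had no UMI in ORIN1001, where the exact interval reaches 4.12 CPM and the floor of 3 counts is 3.35 CPM. Mcm7 had 28.1 CPM in vehicle, 49.9 in docetaxel, 31.3 in ORIN1001 and 75.4 in the combination, Mcm6 36.0 CPM in vehicle, 61.3 in docetaxel, 73.8 in ORIN1001 and 93.4 in the combination and Mcm2 25.9 CPM in vehicle, 40.0 in docetaxel, 48.1 in ORIN1001 and 48.2 in the combination, with vehicle the lowest library for all 3. Of thinned cells, 10.6% (4.96 to 19.2) in vehicle, 8.99% (5.23 to 14.2) in docetaxel, 0% (0 to 6.98) in ORIN1001 and 12.4% (7.53 to 18.9) in the combination had at least 2 mitotic members, and for the 0 of 51 cells in ORIN1001 the floor of 3 counts is 5.88%, below the upper end of that exact interval; both limit cells with such UMIs, not cells that express the genes.

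Epithelial cells, a class that a CD45+ sort should not hold, had the highest share of thinned cells with mitotic members of the classes in every library but ORIN1001, at 45.2% (34.3 to 56.5) in vehicle, 33.3% (11.8 to 61.6) in docetaxel, 21.4% (4.66 to 50.8) in ORIN1001 and 39.1% (27.1 to 52.1) in the combination. Their mitotic members summed to 2254 CPM in vehicle, 1475 in docetaxel, 989 in ORIN1001 and 1536 in the combination and their replication members to 1056 CPM in vehicle, 423 in docetaxel, 425 in ORIN1001 and 1056 in the combination. In docetaxel 25 of 42 members lay at least 0.5 lower and 3 higher, against 24.7% and 21% of 8815 genes, from 21 cells. Rrm2 had 68.7 CPM in vehicle, 4.55 in docetaxel, 0 in ORIN1001 and 58.9 in the combination, from 210, 1, 0 and 93 UMIs. Cdk1 had 94.2 CPM in vehicle, 18.2 in docetaxel, 3.73 in ORIN1001 and 65.3 in the combination and Pclaf 176 CPM in vehicle, 36.4 in docetaxel, 48.5 in ORIN1001 and 170.4 in the combination, lowest in the 2 libraries with 21 cells or fewer. Hmmr, a spindle assembly factor, had 14.7 CPM in vehicle, 27.3 in docetaxel, 3.73 in ORIN1001 and 15.2 in the combination, Plk1 24.9 CPM in vehicle, 45.5 in docetaxel, 3.73 in ORIN1001 and 19.6 in the combination and Kif20a 41.2 CPM in vehicle, 72.8 in docetaxel, 70.9 in ORIN1001 and 35.5 in the combination, with docetaxel the highest and intervals of its ratio to vehicle that include 0 for all 3.

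Monocytes held few member transcripts, 204 mitotic UMIs in vehicle and 155 in ORIN1001. Their replication members summed to 130.3 CPM in vehicle, 150.2 in docetaxel, 148 in ORIN1001 and 189.7 in the combination and their mitotic members to 83.8 CPM in vehicle, 108 in docetaxel, 71.9 in ORIN1001 and 92.5 in the combination. Of the 15 members with 30 UMIs in docetaxel and vehicle, 3 lay at least 0.5 higher and 3 lower, against 9.56% and 9.3% of 8963 genes. In docetaxel 1 cell held 36.1% of the mitotic UMIs, and without the leading cells the mitotic ratio turned from 0.37 (0.13 to 0.61) to -0.099. Mki67 had 4.11 CPM in vehicle, 13.2 in docetaxel, 5.56 in ORIN1001 and 9.54 in the combination, Tyms 3.70 CPM in vehicle, 7.32 in docetaxel, 3.25 in ORIN1001 and 8.52 in the combination and Top2a 3.70 CPM in vehicle, 6.84 in docetaxel, 5.10 in ORIN1001 and 5.48 in the combination, vehicle or ORIN1001 being lowest. Mcm7 had 9.04 CPM in vehicle, 4.88 in docetaxel, 8.35 in ORIN1001 and 10.6 in the combination, Rrm1 16.4 CPM in vehicle, 11.5 in docetaxel, 21.8 in ORIN1001 and 17.7 in the combination and Cenpa 26.7 CPM in vehicle, 18.8 in docetaxel, 20.4 in ORIN1001 and 15.01 in the combination. The intervals of the docetaxel ratio include 0 for Mcm7, Rrm1, Tyms and Top2a.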

How the data were processed

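The deposited counts are raw UMI counts per gene and cell that the authors made with Cell Ranger 5.0.1, per the file headers, on mm10, with Seurat 4.0.1 also named, per the submitters' processing notes; no annotation release is given in the sources used here. Cells with at least 200 genes and under 10% mitochondrial UMIs were kept, and Scrublet (scanpy 1.11.5) marked doublets in each library. It marked 0 cells in ORIN1001, where the top scores at 0.8% per 1000 cells were removed instead. A cell joined a class when its marker score led the next class by 0.1, with at least 3 markers detected. UMIs were summed per class and library as CPM, with exact Poisson, binomial and ratio intervals at 95%. Genes with at least 30 UMIs in a pair of libraries were compared, and a ratio of 0.5 on the log2 scale was the threshold for counts. With 1 library per group there is no test.

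Named genes were the member with the most UMIs of each role in macrophages and the 3 highest and 3 lowest docetaxel ratios of each class; others are marked as chosen after their values were seen. Members and lists were chosen with earlier results of these data known. No member overlapped, on its own strand, another gene that the matrices count, by GENCODE M21, from which gene coordinates were taken by Ensembl identifier. TMM factors came from edgeR 4.0.16, and the summing and interval steps were tested on simulated data. The simulated counts were independent Poisson draws from class sums. They do not carry the clumping of UMIs in few cells, so that spread was not tested. Alternatives were doublet removal, gate lead, gates on thinned cells, Leiden classes, cell weights, cell filter, deepest cells, list make-up, UMI minimum, thinning depth and members per cell.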

Additional observations from a re-analysis of the deposited data

Results flagged for a closer look

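In 4 of the small classes the docetaxel comparisons with and without ORIN1001 ran in opposite directions, which was seen in single libraries and was not tested. Values are log2 differences, docetaxel against vehicle first and the combination against ORIN1001 second. The number of mitotic UMIs per replication UMI differed by -1.23 and 1.42 in conventional DCs, by -0.31 and 0.33 in regulatory T cells, by -0.48 and 0.97 in NK cells and by 0.71 and -0.68 in epithelial cells. The summed mitotic level differed by -0.86 and 2.15 in conventional DCs and by -0.61 and 0.64 in epithelial cells. The summed replication level differed by -1.32 and 1.31 in epithelial cells. Between 1 and 8 cells held 50% of the mitotic UMIs of each of these classes in a library.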

How the results depend on the processing

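Of 313 alternative values of the main results, 202 stayed within the main value's counting error or, for counts, within 1.5 times, 98 moved further and 13 changed sign. Of 480 alternative values of single members, 403 stayed, 64 moved and 13 changed sign. The 26 alternative values of shares of cells all stayed. Values below are log2 differences of mitotic UMIs per replication UMI, for docetaxel (against vehicle) or the combination (against ORIN1001), summed mitotic ratios and counts of members 0.5 away, both for docetaxel against vehicle; the cause was not tested. With classes from Leiden clusters, the difference for docetaxel was -0.050 in macrophages, -0.85 in monocytes, -0.57 in conventional DCs and 0.27 in epithelial cells, and the difference for the combination was 0.16 in NK cells. There, the summed mitotic ratio was 0.15 in macrophages, -0.62 in monocytes, -0.16 in conventional DCs, -1.01 in regulatory T cells, -0.75 in NK cells and -0.84 in epithelial cells, and the count of members was 1 in macrophages, 17 in monocytes and 14 in conventional DCs. Without the deepest 5% of cells, the difference for docetaxel was -0.061 in macrophages, -0.50 in monocytes, -0.28 in conventional DCs, -0.46 in CD8 T cells, -0.96 in regulatory T cells, -0.70 in NK cells and 1.496 in epithelial cells, and the difference for the combination was -0.40 in macrophages, -0.20 in CD8 T cells, 0.038 in regulatory T cells, 0.38 in NK cells and -1.43 in epithelial cells. In this setting, the summed mitotic ratio was 0.16 in macrophages, -0.36 in monocytes, 0.23 in conventional DCs, -0.17 in CD8 T cells, -1.63 in regulatory T cells and 0.15 in epithelial cells, and the count of members was 1 in macrophages, 12 in conventional DCs, 11 in regulatory T cells and 7 in NK cells. In sums of thinned cells, the difference for docetaxel was -0.035 in macrophages, -0.45 in monocytes, -0.72 in conventional DCs, -0.031 in regulatory T cells, -1.07 in NK cells and 1.56 in epithelial cells, and the difference for the combination was -0.54 in macrophages, -0.15 in CD8 T cells, -0.14 in regulatory T cells and 0.31 in NK cells. There, the summed mitotic ratio was 0.16 in macrophages, -0.42 in monocytes, -0.56 in conventional DCs, -0.15 in CD8 T cells, -0.68 in regulatory T cells, -1.31 in NK cells and 0.70 in epithelial cells. With each cell weighted the same, the difference for docetaxel was -0.19 in monocytes, -1.05 in conventional DCs, -0.26 in CD8 T cells, -0.69 in NK cells and 1.34 in epithelial cells, and the difference for the combination was -0.48 in macrophages, -0.13 in CD8 T cells, 0.40 in NK cells and 0.038 in epithelial cells. In this setting, the summed mitotic ratio was 0.13 in macrophages, 0.059 in monocytes, -0.54 in conventional DCs, -0.15 in CD8 T cells, -0.94 in regulatory T cells and 0.033 in epithelial cells. With a gate lead of 0.2, the difference for docetaxel was -0.21 in monocytes, -1.43 in conventional DCs and 0.32 in epithelial cells, and the difference for the combination was 0.018 in regulatory T cells. There, the summed mitotic ratio was -0.30 in monocytes, -1.20 in conventional DCs, -1.06 in regulatory T cells, -0.63 in NK cells and -1.14 in epithelial cells, and the count of members was 1 in monocytes and 4 in NK cells. With gates on thinned cells, the difference for docetaxel was -0.76 in monocytes, -0.94 in conventional DCs, -0.47 in CD8 T cells, -0.68 in regulatory T cells and -2.26 in NK cells, and the difference for the combination was -0.15 in CD8 T cells. In this setting, the summed mitotic ratio was -0.91 in monocytes, -0.18 in CD8 T cells, -1.91 in regulatory T cells, -2.97 in NK cells and -0.95 in epithelial cells, and the count of members was 13 in NK cells. Without the leading cell, the difference for docetaxel was -0.16 in monocytes, 0.078 in regulatory T cells and -0.72 in NK cells, and the difference for the combination was -0.34 in monocytes and -0.29 in epithelial cells. There, the summed mitotic ratio was -0.099 in monocytes, -0.73 in conventional DCs, -0.65 in regulatory T cells, -1.21 in NK cells and -0.87 in epithelial cells, and the count of members was 20 in regulatory T cells. Without the member with the most UMIs, the difference for docetaxel was 0.48 in monocytes and -0.27 in NK cells, and the summed mitotic ratio was 0.65 in monocytes. Without a minimum of UMIs, the count of members was 22 in monocytes. With at least 100 UMIs, the count of members was 1 in monocytes, 14 in conventional DCs, 13 in regulatory T cells and 13 in NK cells. For the counts in this section, the number of members compared and the share over all genes are not given. Without the cell filter, the summed mitotic ratio was -0.42 in epithelial cells. Of single members, in sums of thinned cells the ratio for docetaxel against vehicle turned sign to -0.024 for Mcm3 in CD8 T cells, 0.54 for Aurka in CD8 T cells, -0.13 for Mcm6 in macrophages, 0.10 for Ube2c in macrophages and 0.20 for Cenpf in macrophages. In sums of thinned cells the ratio for the combination against ORIN1001 turned sign to -0.040 for Mcm5 in CD8 T cells, -0.098 for Mcm6 in CD8 T cells, -0.37 for Ube2c in macrophages and -0.29 for Cenpf in macrophages. Without the deepest 5% of cells the ratio for docetaxel against vehicle turned sign to 0.00049 for Ube2c in macrophages. Without the deepest 5% of cells the ratio for the combination against ORIN1001 turned sign to 0.0018 for Ube2c in CD8 T cells, 0.13 for Mki67 in CD8 T cells and -0.085 for Cenpf in macrophages. The leading-cell and thinned-sum settings were chosen after seeing the data. With 1 library per group no replicate could be left out, and few mitotic UMIs limit the values of the small classes. No paired analysis was possible because each group held 1 library.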

Other observations

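Neutrophils, the class used as background, held 1 member above its macrophage level. Kif23, the kinesin of the centralspindlin complex, had 34.2 CPM in vehicle, 36.1 in docetaxel, 32.5 in ORIN1001 and 31.1 in the combination in neutrophils and 17.5 CPM in vehicle, 16.5 in docetaxel, 15.5 in ORIN1001 and 15.5 in the combination in macrophages, and no other member of the 42 was higher in neutrophils than in macrophages in any library. Kif23 made up 28.4% of the mitotic UMIs of neutrophils in vehicle, 26.9% in docetaxel, 40.4% in ORIN1001 and 22.2% in the combination. It overlaps no other annotated gene in GENCODE M21. Its partner Racgap1 had 1.91 CPM in vehicle, 2.46 in docetaxel, 0.986 in ORIN1001 and 1.89 in the combination in neutrophils.

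Cenpa took a larger part of the mitotic UMIs in monocytes than in macrophages. It made up 31.9% (25.5 to 38.7) of them in vehicle monocytes, 17.4% (14.0 to 21.2) in docetaxel, 28.4% (21.4 to 36.2) in ORIN1001 and 16.2% (12.96 to 19.9) in the combination, against 7.76%, 7.20%, 10.9% and 6.62% in macrophages of the same libraries. In macrophages the share was highest in ORIN1001. A high share was not particular to monocytes. In regulatory T cells it was 5.92% in vehicle, 12.1% in docetaxel, 16.8% in ORIN1001 and 19.9% in the combination. In plasmacytoid DCs, gated apart from conventional DCs, it was 16.9% in vehicle, 8.14% in docetaxel, 32% in ORIN1001 and 20.1% in the combination. The leading monocyte held 36.1% of the mitotic UMIs of its class in docetaxel, and without the leading cell of each library the monocyte shares were 34.8%, 25.4%, 31.4% and 16.8%. These were noticed in the data and have no replicate check.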
